A study of Ambystoma mexicanum with 6 samples.

Results

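The vacuolar-type proton pump (V-ATPase) is a rotary machine of many subunits that acidifies lysosomes, endosomes and secretory vesicles. Its genes were described here in cultured axolotl cells driven into senescence. The list held 10 subunit genes by symbol, 8 of the V1 sector (ATP6V1A, ATP6V1B2, ATP6V1C1, ATP6V1D, ATP6V1E1, ATP6V1F, ATP6V1G1 and ATP6V1H) and 2 of the V0 sector (ATP6V0A1 and ATP6V0D1). Rows of the count table were matched by symbol, upper-cased and without a .L or .S ending. This found 9 of the 10 symbols, each in 1 gene model, among 99126 gene models in all. Where a symbol had several models, 1 was to be selected on its mean count over the 6 libraries, a choice that did not arise for these 9. ATP6V1A is listed in the table as ATP6V1A.S and ATP6V0D1 as ATP6V0D1.L. No row carried the symbol ATP6V1H, and all of the other 9 had enough reads to be tested.

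The study compared 2 groups of 3 libraries from AL1 cells, a wild-type fibroblast line of the axolotl Ambystoma mexicanum. Treated cells received 10 µM etoposide, which traps topoisomerase on broken DNA, together with 1 µM nutlin-3a, which blocks MDM2, for 24 h, and then 1 µM nutlin-3a alone for 11 days. Control cells received DMSO, the solvent, and were passaged through the 12 days so that they went on dividing. Cells of both groups were collected at day 14, and 1000 ng of total RNA per sample entered a poly(A)-primed Smart-seq2 procedure. The drugs, the senescent state, the arrest of division and the passaging of the control cells cannot be told apart in this design. AL1 is a single line, and whether replicate libraries derive from different cultures is not in the labels, so the p-values reflect variation among these libraries alone, and that variation may be technical.

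The V1 sector lies in the cytosol and breaks down ATP, and the V0 sector sits in the membrane and carries protons across it. In V1, subunits A and B form the catalytic head, D and F the turning shaft, E and G the outer stalks, and C and H join the head to the membrane sector. In V0, subunit a conducts protons and anchors the stalks, d couples the shaft to the proteolipid ring, and c, c'' (ATP6V0B) and e lie in the membrane. The low pH made by the pump activates lysosomal enzymes, and a widened lysosomal compartment is a known feature of senescent cells. In mammals the pump is also part of the machinery on the lysosomal surface that recruits the growth-controlling kinase complex mTORC1.

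Library totals ran from 28604727 to 46686876 counts. Values are CPM, read counts relative to the library total, rescaled between libraries with edgeR's TMM factors. A floor of 3 counts, set as an approximate upper limit where 0 was counted, corresponds to 0.0672 to 0.116 CPM. Changes were called where edgeR's quasi-likelihood test gave an adjusted p below 0.05. Over all 17424 models tested, 25.5% were called higher and 26.8% lower in treated cells, and the median log2 fold change was −0.03. With library size as the only scaling, 2314 models (13.3%) were higher and 7029 lower, against 4443 and 4665 with TMM. Of 14 fibroblast markers 12 had a row: VIM measured 6827 ± 188 CPM in DMSO and COL1A1 241 ± 27.3 CPM (SD, n = 3), while THY1 had at most 1 count, COL5A1 at most 2 and DCN at most 3 in any library.

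Of the 9 V-ATPase subunit genes 8 were higher in treated cells and 0 were lower, where 25.5% of all models tested were higher. With library size only the counts were 7 and 1, where 13.3% of all models were higher. With TMM the median log2 fold change of the 9 genes was 1.20, against −0.03 over all models. In 8 of the 9 all treated libraries lay above all DMSO libraries, as did 28.8% of all models tested. At an unadjusted p under 0.05 the number lower was also 0, and DESeq2 likewise called 8 higher and 0 lower. The list was drawn up with results of this comparison known and is not independent evidence of its direction. The 9 genes together took 0.0845% to 0.0872% of all counts in the DMSO libraries and 0.145% to 0.158% in the treated libraries. Because bulk RNA was measured, a larger share of a transcript per cell and more cells that carry it cannot be told apart.

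**Figure D1:**
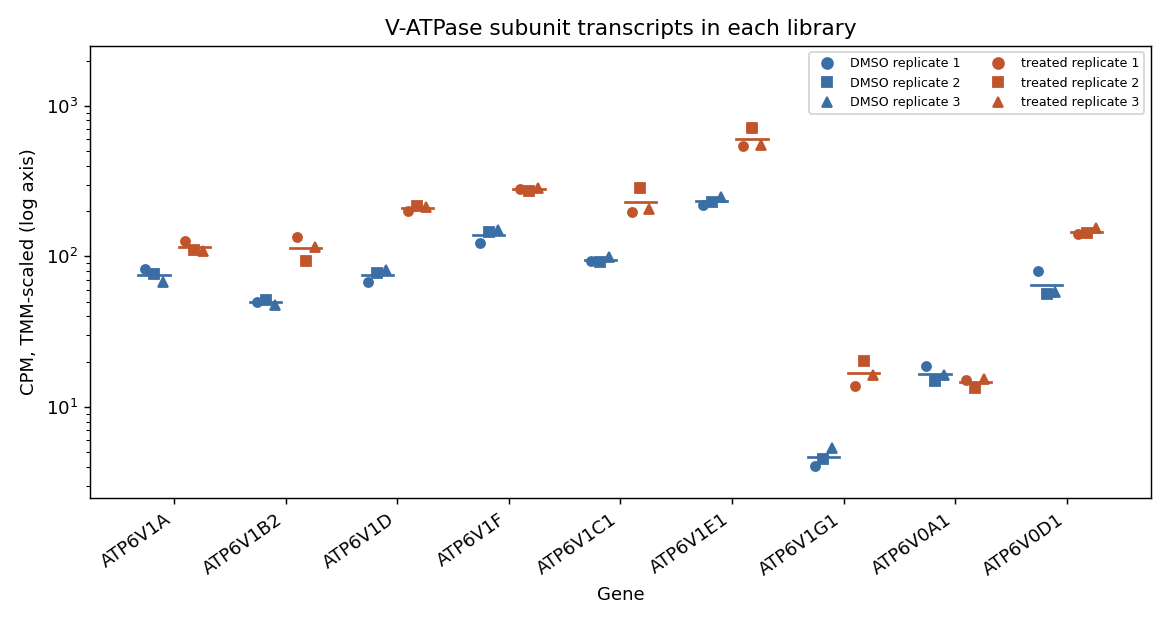
Each point is 1 library, with TMM-scaled CPM on a log axis, blue for DMSO and orange for treated cells, and the line is the mean of the 3 libraries. For 8 genes the treated points lie above all DMSO points, and for ATP6V0A1 the groups overlap.

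The catalytic head genes both rose. ATP6V1A, whose product holds the ATP-hydrolysing sites, measured 82.0, 76.8 and 68.0 CPM in the DMSO libraries and 127, 110 and 109 CPM in the treated libraries. The groups did not overlap, and all treated values were above the highest DMSO value of 82.0 CPM. Treated over DMSO, the log2 fold change was 0.61 (SE 0.12; adjusted p = 0.000736 in edgeR), the smallest among the 8 genes that rose. With library size as the only scaling that call was lost (0.24 in log2 units, edgeR adjusted p = 0.189). ATP6V1A lies on chromosome 7p (82843875 to 84086820, plus strand, assembly AmexG_v6_DD), where 21 exon blocks spread over 1242946 bases.

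ATP6V1B2, the partner of subunit A in the head, measured 50.0, 51.3 and 47.5 CPM in DMSO and 134, 92.9 and 116 CPM in treated libraries. The DMSO libraries lay close together, the treated libraries lay higher and wider apart, and treated replicate 2 was the lowest of them. Its log2 fold change was 1.20 (SE 0.13; adjusted p = 7.53e-06 in edgeR). Subunits A and B alternate in the head in equal number. Per kilobase of exon the ratio of the ATP6V1A level to the ATP6V1B2 level was 1.07 ± 0.0737 in DMSO and 0.719 ± 0.0977 in treated libraries (SD, n = 3), with no overlap between groups. The level of this ratio depends on the exon models, of 5943 bases for ATP6V1A and 4163 bases for ATP6V1B2. It is a ratio of transcripts, and protein was not measured. ATP6V1B2 lies on chromosome 10q (345068257 to 345305756, minus strand) in 14 exon blocks.

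Both shaft genes rose. ATP6V1D, the central rotor, measured 67.2, 77.7 and 81.5 CPM in DMSO and 199, 217 and 213 CPM in treated libraries. Every treated library was above 2 times the highest DMSO level. On the log2 scale the change was 1.47 (SE 0.12; adjusted p = 3.25e-07 in edgeR). ATP6V1F, the second shaft subunit, measured 123, 146 and 150.0 CPM in DMSO and 282, 271 and 284 CPM in treated libraries. The treated libraries differed little among themselves, and DMSO replicate 1 was the lowest of all. Between groups the log2 fold change was 1.00 (SE 0.12; adjusted p = 1.28e-05 in edgeR). ATP6V1F is a compact gene of 2 exon blocks over 11293 bases of chromosome 12q (632092338 to 632103630, plus strand), and ATP6V1D has 9 exon blocks on chromosome 14q (315658730 to 315893091, plus strand).

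The stalk and collar genes rose as well. ATP6V1C1, a collar subunit through which V1 is known to be released from and joined to V0, measured 93.6, 91.4 and 98.3 CPM in DMSO and 198, 286 and 207 CPM in treated libraries, a log2 difference of 1.28 (SE 0.14; adjusted p = 7.33e-06 in edgeR). ATP6V1E1, an outer stalk subunit, had the highest CPM of the 9, with 219.8, 228 and 247 in DMSO and 540.2, 713 and 546 CPM in treated libraries. Treated replicate 2 was the highest library for both of these genes, and the groups stood clear of each other without it. The log2 fold change of ATP6V1E1 was 1.37 (SE 0.14; adjusted p = 3.27e-06 in edgeR). ATP6V1C1 has 13 exon blocks on chromosome 5q (894709932 to 896024447, plus strand), and ATP6V1E1 has 9 on chromosome 12q (95385054 to 95823862, minus strand).

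ATP6V1G1, the stalk partner of subunit E, had the largest change of the 9 and the lowest CPM in DMSO. It measured 4.05, 4.54 and 5.33 CPM in DMSO and 13.8, 20.1 and 16.2 CPM in treated libraries, resting on 152 to 168 counts and 518 to 629 counts. The lowest treated library was above 2 times the highest DMSO library. This was a log2 fold change of 1.85 (SE 0.18; adjusted p = 1.88e-06 in edgeR). Subunits E and G pair in each stalk, and per kilobase the ATP6V1G1 level was 3.60 ± 0.500 CPM per kb in DMSO against 160.1 ± 9.60 CPM per kb for ATP6V1E1. ATP6V1G2, another form of subunit G, is named in the RefSeq annotation of another axolotl assembly but had no row here. Whether the ATP6V1G1 model stands for the main subunit G gene was not tested, so its values may not give the level or change of subunit G. ATP6V1G1 has 3 exon blocks on chromosome 8p (260960692 to 260984640, minus strand).

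Of the 2 listed V0 genes 1 rose. ATP6V0D1, which links the shaft to the membrane ring, measured 79.9, 55.9 and 57.6 CPM in DMSO and 141, 142 and 154 CPM in treated libraries, a log2 difference of 1.17 (SE 0.14; adjusted p = 1.34e-05 in edgeR). DMSO replicate 1 was well above the other DMSO libraries but below every treated one. ATP6V0A1, the a1 form of the proton-conducting subunit, measured 18.8, 14.8 and 16.4 CPM in DMSO and 15.1, 13.3 and 15.3 CPM in treated libraries. The groups overlapped, and the log2 fold change of −0.19 (SE 0.14; adjusted p = 0.263 in edgeR) did not pass the test. With library size as the only scaling ATP6V0A1 was called lower (−0.56, edgeR adjusted p = 0.0222), where the median of all models was −0.40. Per kilobase, the ratio of ATP6V0A1 to ATP6V0D1 was 0.0596 ± 0.00563 in DMSO and 0.0228 ± 0.00162 in treated libraries (SD, n = 3). The level of this ratio depends on the exon models, of 21185 bases for ATP6V0A1 and 4827 bases for ATP6V0D1. ATP6V0D1 has 10 exon blocks on chromosome 1p (973516696 to 974391200, minus strand), and ATP6V0A1 has 24 on chromosome 13q (281311111 to 281682718, minus strand).

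**Figure D2:**
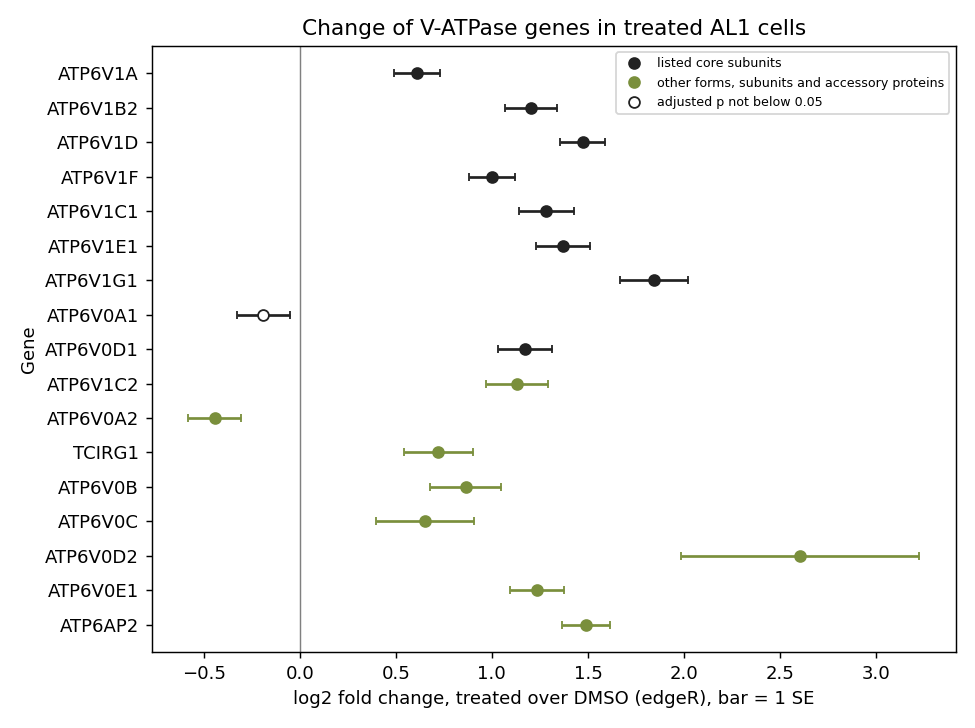
Points are edgeR log2 fold changes of treated over DMSO and bars are 1 SE, black for the 9 listed subunit genes and green for the other V-ATPase genes tested, with an open symbol where the adjusted p was not below 0.05. ATP6V0A1 and ATP6V0A2 lie below 0 and all other genes above it.

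Levels of the subunits were compared with each other per kilobase of exon model. In DMSO cells the order of mean levels was ATP6V1E1 (160.1 CPM per kb), ATP6V1F (118), ATP6V1C1 (45.0), ATP6V1D (32.1), ATP6V0D1 (13.4), ATP6V1A (12.7), ATP6V1B2 (11.9), ATP6V1G1 (3.60) and ATP6V0A1 (0.786). The libraries of ATP6V0D1 overlapped those of ATP6V1A, and those of ATP6V1A overlapped those of ATP6V1B2, so these neighbours could not be ordered. In treated cells the order was the same except that ATP6V1B2 (27.4 CPM per kb) stood above ATP6V1A (19.4 CPM per kb). ATP6V0D1 and ATP6V1B2 overlapped there, and all other neighbours were apart in both groups. Overlap reflects only the spread between libraries, so neighbours that were apart are ordered only for these exon models. In DMSO cells ATP6V1A and ATP6V1D averaged 75.6 and 75.5 CPM, with exon models of 5943 and 2352 bases. The exon model of ATP6V0A1 sums to 21185 bases in 24 blocks, against 1179 to 5943 bases for the other 8 genes, and in CPM its DMSO level was above that of ATP6V1G1.

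**Figure D3:**
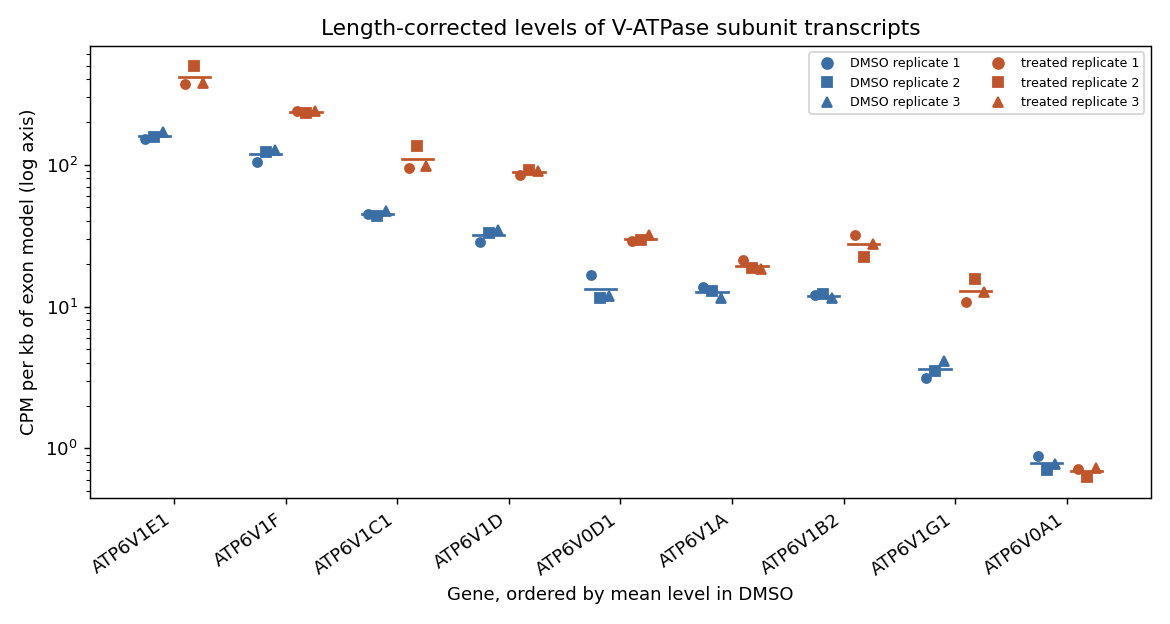
Points are TMM-scaled CPM per kilobase of exon model in each library on a log axis, with genes ordered by their mean level in DMSO and lines at group means. ATP6V1E1 is highest in both groups at 160.1 and 414 CPM per kb, and ATP6V0A1 is lowest.

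Change was also set beside exon length. Across the 9 genes Spearman's rho between exon length and log2 fold change was −0.60, a description over genes that share the same 6 libraries. It includes ATP6V0A1, the longest exon model (21185 bases) and the only gene that did not rise. ATP6V1F, the shortest (1179 bases), rose by 1.00 in log2 units. Over all models tested, 38.3% of the 2441 with exons of over 1000 and up to 2000 bases were called higher, against 17.1% of the 2862 longer than 8000 bases, of which 28.2% were called lower. Of the 2141 with at most 1000 bases, 30.2% were called higher and 14.2% lower. Treated replicate 2 differed from the mean of the other treated libraries in log2 CPM by 0.50 for ATP6V1C1, 0.43 for ATP6V1G1, 0.39 for ATP6V1E1 and 0.08 for ATP6V1D. Its difference was −0.05 for ATP6V0D1, −0.06 for ATP6V1F, −0.09 for ATP6V1A, −0.19 for ATP6V0A1 and −0.42 for ATP6V1B2, so that ATP6V1F, the shortest exon model of the 9, was not among those above the others. Over all models treated replicate 2 differed by a median of 0.35 for those of at most 1000 bases, a class with none of the 9 genes. The median was 0.17 for those of over 1000 and up to 2000 bases. For those of over 2000 and up to 4000 bases it was 0.009. It was −0.12 for those of over 4000 and up to 8000 bases and −0.09 for longer ones. When a length trend was removed from each library, the same 8 genes were called higher, ATP6V1A at a log2 fold change of 0.78, ATP6V1F at 0.77 and ATP6V1G1 at 1.61, and ATP6V0A1 stood at −0.06 (edgeR adjusted p = 0.683). By length class, the median log2 fold change of all models ran from −0.18 to 0.28. Removing so small a trend could hardly undo most of these rises, so it does not test the part of length in them.

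The genome holds further V-ATPase genes: alternative forms of several subunits, the remaining V0 subunits and accessory proteins. Of 16 such symbols 12 had a row and 8 were tested. Among these 7 were higher and 1 was lower, against 25.5% and 26.8% of all models, with a median log2 fold change of 1.00. The 7 include ATP6V0D2, which passed the low-count filter only through its treated libraries. With library size only 4 were higher, where 13.3% of all models were. ATP6V1C2, a second form of the collar subunit, rose from 3.92 ± 0.149 to 8.58 ± 0.713 CPM (SD, n = 3), and its level per kilobase relative to ATP6V1C1 was 0.0482 ± 0.00265 in DMSO and 0.0444 ± 0.00808 in treated libraries, with overlapping groups. ATP6V0E1, a small membrane subunit, rose from 156 ± 28.2 to 366 ± 12.8 CPM (1.24 in log2 units, edgeR adjusted p = 8.45e-06).

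ATP6V0B, the c'' subunit of the proteolipid ring, measured 31.5, 21.7 and 23.1 CPM in DMSO and 45.7, 34.6 and 58.5 CPM in treated libraries (0.86 in log2 units, edgeR adjusted p = 0.00152). With library size only, its value was 0.50 and did not pass (edgeR adjusted p = 0.102). The model named ATP6V0C, for subunit c, is listed as 1 exon block of 1116 bases with 37 to 82 counts per library. It stood at 1.16 ± 0.208 CPM in DMSO and at 1.83 ± 0.196 CPM in treated libraries (0.65 in log2 units, edgeR adjusted p = 0.0446), a call that was lost under 11 of 15 alternatives, including the omission of any single library. Another model given below, LOC109050023, is described as the 16 kDa proteolipid subunit and had 9873 to 19057 counts per library. Which of these models stands for the axolotl subunit c gene was not tested, so the ATP6V0C values may not give its level. ATP6V0D2, a form of subunit d known from osteoclasts and kidney in mammals, had 9, 4 and 0 counts in DMSO and 21, 22 and 38 counts in treated libraries, a log2 difference of 2.60 (SE 0.62; adjusted p = 0.00308 in edgeR). That value was 3.55 without DMSO replicate 1 and 2.08 without DMSO replicate 3, and the call held in both cases. ATP6V0D2 passed the low-count filter only through its treated libraries, so its call does not test its direction. With a mean CPM of at least 1 required it was not tested. Of the 7 other V-ATPase genes tested under that filter 6 were higher and 1 lower, where 27.8% of all models were higher. ATP6V1B1, ATP6V1G3, ATP6V0A4 and ATP6AP1L had too few counts to be tested, with at most 13 in any library.

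The a subunit decides in which membrane the pump is placed, and 3 of its forms were tested. ATP6V0A2, the a2 form known from the Golgi apparatus and endosomes, measured 17.2, 16.2 and 15.0 CPM in DMSO and 12.4, 10.4 and 12.8 CPM in treated libraries. All treated libraries were below all DMSO libraries, as were 31.4% of all models tested. Treated over DMSO, the log2 fold change was −0.44 (SE 0.14; adjusted p = 0.0150 in edgeR). That call was lost without DMSO replicate 1 (−0.40, edgeR adjusted p = 0.0525), without DMSO replicate 2 (−0.45, edgeR adjusted p = 0.0522) and with the length trend removed (−0.28, edgeR adjusted p = 0.0653). Exons of TCTN2 on the opposite strand share 9.73% of the exon bases of ATP6V0A2, and the library procedure as described keeps no strand.

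TCIRG1, the a3 form known from lysosomes and from the acid-secreting membrane of mammalian osteoclasts, measured 19.7, 16.6 and 14.3 CPM in DMSO and 35.2, 20.7 and 27.5 CPM in treated libraries. The groups did not overlap, but treated replicate 2 exceeded the highest DMSO library by little. On the log2 scale the change was 0.72 (SE 0.18; adjusted p = 0.00417 in edgeR), and 0.37 with library size only, where the call was lost (edgeR adjusted p = 0.227). Per kilobase, the ratio of TCIRG1 to ATP6V0A1 was 5.44, 5.82 and 4.53 in DMSO and 12.0, 8.07 and 9.32 in treated libraries. The ratio of ATP6V0A1 to ATP6V0A2 was 0.262 ± 0.0256 in DMSO and 0.314 ± 0.0106 in treated libraries (SD, n = 3). The level of both ratios depends on the exon models, of 21185 bases for ATP6V0A1, 4089 for TCIRG1 and 5388 for ATP6V0A2. Without division by length the mean DMSO levels were close, at 16.7 CPM for ATP6V0A1, 16.9 for TCIRG1 and 16.1 for ATP6V0A2.

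Within-library ratios per kilobase, of 5 pairs of genes chosen with their values known, were tested by a two-sided exact permutation test on log2 ratios, which with 3 libraries a group cannot go below p = 0.10. The smallest value was reached by 4 of them, TCIRG1 to ATP6V0A1, ATP6V0A1 to ATP6V0A2, ATP6V1A to ATP6V1B2 and ATP6V0A1 to ATP6V0D1, each with an exact p of 0.125 after adjustment over the 5. The ratio of ATP6V1C2 to ATP6V1C1 gave an exact permutation p of 0.50, also after adjustment. None of these ratios could therefore pass the threshold in this design.

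**Figure D4:**
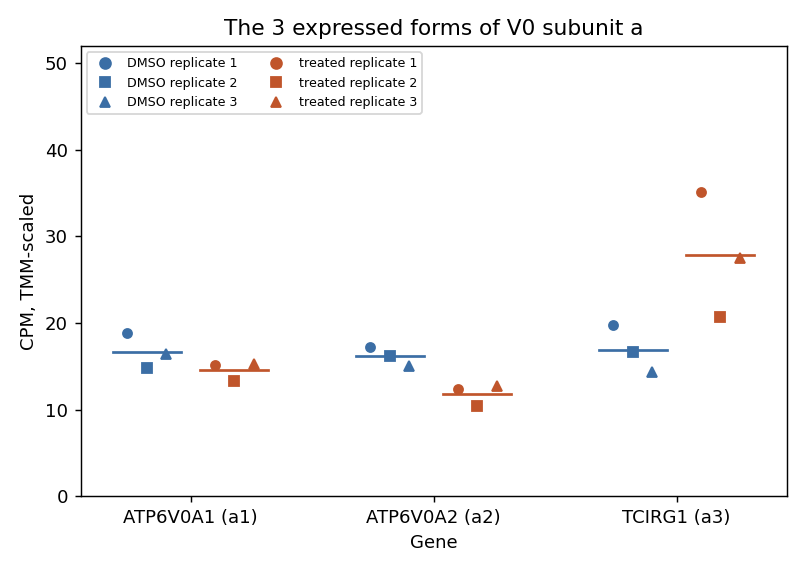
Points are TMM-scaled CPM of the 3 tested forms of V0 subunit a in each library on a linear axis starting at 0, with lines at group means. Treated libraries lie above DMSO for TCIRG1, below for ATP6V0A2, and overlap for ATP6V0A1.

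ATP6AP2, an accessory protein of the pump also known as the prorenin receptor, measured 56.6, 48.5 and 47.7 CPM in DMSO and 152, 125 and 152 CPM in treated libraries. Each treated library was above 2 times the highest DMSO library. Between groups the log2 fold change was 1.49 (SE 0.12; adjusted p = 5.42e-07 in edgeR). On the opposite strand an unnamed model shares 4.44% of its exon bases. Exon models of the 9 listed subunit genes shared 0 bases with other models.

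A few more models were taken up after their values were seen, because their symbol or their description in the table names a V-ATPase subunit. LOC102866574, described there as like subunit H of the V-type proton ATPase, rose from 65.7 ± 2.64 to 172 ± 25.0 CPM (SD, n = 3), with a log2 difference of 1.39 (SE 0.13; adjusted p = 1.05e-06 in edgeR). LOC109050023, described as the 16 kDa proteolipid subunit, rose from 298 ± 20.8 to 461 ± 41.4 CPM (0.63 in log2 units, edgeR adjusted p = 0.000860), and an unnamed model on the opposite strand shares 16.1% of its exon bases. ATP6AP1.2.S, named for the accessory protein 1, rose from 29.5 ± 1.18 to 44.9 ± 8.73 CPM (0.61 in log2 units, edgeR adjusted p = 0.00258). LOC102456381 and LOC115078296, described as like subunits S1 and A, had at most 10 and 7 counts in any library. Whether LOC102866574 is the axolotl ATP6V1H rests on that description alone. All 10 listed symbols are named in the RefSeq annotation of another axolotl assembly, UKY_AmexF1_1, whose models were not matched to these.

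Assembly and regulation of the pump need further proteins, and of 14 such genes 10 had a row and 9 were tested. Of these 3 were higher and 1 was lower, where 25.5% and 26.8% of all models were, with a median log2 fold change of 0.34. VMA21, a chaperone of V0 in the endoplasmic reticulum, rose from 160.5 ± 14.0 to 219 ± 7.95 CPM (change of 0.45 in log2 units, edgeR adjusted p = 0.00507). WDR7, a partner of the RAVE complex that joins V1 to V0, rose from 1.53 ± 0.265 to 3.02 ± 0.134 CPM, and OXR1, a TLDc-domain protein that binds the pump, from 32.3 ± 1.56 to 50.2 ± 11.0 CPM. TMEM9, a lysosomal protein reported to bind the pump, fell from 2.96 ± 0.419 to 1.83 ± 0.404 CPM (−0.67 in log2 units, edgeR adjusted p = 0.0253). Among those that did not pass, CCDC115 had a log2 fold change of −0.07, ROGDI 0.27, DMXL1 0.34, DMXL2 1.25 (edgeR adjusted p = 0.0517) and NCOA7 −0.53, and TLDC2 was too low to be tested. With library size only 1 was higher, where 13.3% of all models were. Without treated replicate 2 or with upper-quartile scaling 5 of the list were higher. Of the list 0 were lower without DMSO replicate 2, treated replicate 2 or treated replicate 3 or with the length trend removed.

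On the lysosomal surface the pump works with Ragulator and the Rag GTPases. Of 19 genes of this list and mTORC1, 17 were tested: 8 were higher and 0 lower, where 25.5% and 26.8% of all models were, and the median log2 fold change was 0.37. At an unadjusted p under 0.05 the counts were the same, as they were by DESeq2. All 5 Ragulator genes rose, from LAMTOR3 at 0.49 on the log2 scale to LAMTOR2 at 1.20, the latter from 141 ± 15.2 to 325 ± 76.7 CPM. RHEB, the GTPase that switches mTORC1 on, rose from 123 ± 12.1 to 297 ± 59.1 CPM. SLC38A9, a lysosomal arginine sensor, had 0, 0 and 2 counts in DMSO and 29, 21 and 38 counts in treated libraries. RRAGC was the other gene that rose. SLC38A9 passed the low-count filter only through its treated libraries, so its call does not test its direction. With a mean CPM of at least 1 required, 7 of 14 tested genes of the list were higher and 0 lower, where 27.8% of all models were higher. Among those that did not pass, MTOR, the kinase itself, was at 5.36 ± 1.17 and 5.26 ± 0.808 CPM (edgeR adjusted p = 0.926). Under library size only, 6 were higher and 1 lower, where 13.3% of all models were higher.

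MiT/TFE factors are known in mammals to switch on V-ATPase and other lysosomal genes together. Of 4 such genes 3 were tested and 0 passed by edgeR, with 1 at an unadjusted p under 0.05 and 0 by DESeq2. TFEB stood at 1.70 ± 0.230 CPM in DMSO and at 1.36 ± 0.355 CPM in treated libraries (edgeR adjusted p = 0.345), and TFE3 4.50 ± 1.20 and 5.89 ± 1.26 CPM (edgeR adjusted p = 0.159). MITF measured 1.23 ± 0.382 and 0.672 ± 0.186 CPM (−0.84 in log2 units, edgeR adjusted p = 0.0501), just outside the threshold, and shares 13.0% of its exon bases with other models. Under the alternatives 1 gene of the list was lower with library size only, without the low-count filter, with a mean CPM of at least 1, with models of a symbol summed, and without DMSO replicate 3 or treated replicate 1, and 1 was higher with the length trend removed. With library size only, 7029 of all 17424 models were lower.

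Ion channels and exchangers set the pH together with the pump. Of 15 such genes 9 were tested, and 4 were higher and 0 lower, against 25.5% and 26.8% of all models, with a median log2 fold change of 0.66; at an unadjusted p under 0.05 the counts were 6 and 0, and by DESeq2 4 and 0. CLCN7, the chloride-proton exchanger of lysosomes, rose from 1.77 ± 0.343 to 4.42 ± 0.550 CPM (1.32 in log2 units, edgeR adjusted p = 0.000175), and CLCN3 rose from 3.64 ± 0.787 to 5.94 ± 0.763 CPM. With library size only 1 was higher, where 13.3% of all models were. When DMSO replicate 3 was left out 2 were, where 22.3% of all models were. The mitochondrial ATP synthase is a rotary relative of the pump that runs in the other direction. Of its 14 tested genes 10 were higher and 0 lower, beside the same 25.5% and 26.8% of all models. The median log2 fold change of these genes was 0.49. At an unadjusted p under 0.05 12 were higher and 0 lower, and by DESeq2 the counts were the same. With library size only 3 were higher and 1 lower, where 13.3% of all models were higher. ATP5ME rose from 245 ± 49.9 to 679 ± 240 CPM and ATP5F1E from 767 ± 161 to 1616 ± 481 CPM, while the β subunit gene ATP5F1B, the counterpart of ATP6V1A, measured 3426 ± 161 and 3497 ± 126 CPM (edgeR adjusted p = 0.870).

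Osteoclasts and macrophages are rich in this pump, so their markers were examined beside these genes. Of 10 markers 9 had a row, and their summed level was 16.6 to 19.0 CPM in DMSO and 28.2 to 37.5 CPM in treated libraries. Most of that sum came from CTSK. PTPRC, SPI1 and CALCR had 0 counts in all 6 libraries, CSF1R had at most 3 and MPEG1 had 3 counts in 1 treated library and 0 elsewhere. Of 4 tested markers 3 rose, where 25.5% of all models did: CD68, a protein of late endosomes and lysosomes, from 1.87 ± 0.384 to 6.23 ± 1.20 CPM, the protease gene CTSK from 14.5 ± 1.23 to 24.9 ± 2.95 CPM, and ACP5, a lysosomal phosphatase gene whose groups overlapped, from 0.923 ± 0.234 to 1.59 ± 0.436 CPM. The remaining tested marker was not called, at a log2 fold change of 0.04. The number of the 4 that rose was 2 without DMSO replicate 1 or 3 or treated replicate 1 or 3. It was 1 with library size only, where 13.3% of all models were higher. Of 8 tested fibroblast markers 3 fell by edgeR, where 26.8% of all models did, and 0 rose, FN1 from 149.6 ± 34.9 to 73.5 ± 9.24 CPM, COL1A2 from 57.6 ± 4.35 to 32.8 ± 7.93 CPM and COL1A1 to 157 ± 41.8 CPM; at an unadjusted p under 0.05 0 rose and by DESeq2 1 did. The summed fibroblast level was 7244 to 7497 CPM in DMSO and 7697 to 9418 CPM in treated libraries. Most of that sum was VIM, at 6646 to 7021 CPM in DMSO and 7428 to 9011 CPM in treated libraries, which was not called (edgeR adjusted p = 0.135). EPCAM and CDH5 had 0 counts. Summed endothelial markers stayed at or below 2.06 CPM and muscle markers at or below 0.739 CPM in every library. Single markers of other cell types also moved, VWF, KRT5 and SNAP25 to higher and KRT18 and SOX10 to lower levels, KRT18 sharing 11.6% of its exon bases with a model on the opposite strand. Tested were 2 endothelial, 2 epithelial and 4 nerve markers, where 25.5% of all models were higher and 26.8% lower. Counts in the DMSO libraries were low, at 4 to 7 for VWF, 17 to 48 for KRT5 and 2 to 23 for SNAP25. VWF and SNAP25 would not have passed the low-count filter on their DMSO libraries alone. Epithelial markers summed to 1294 to 1417 CPM in DMSO and 933 to 1147 CPM in treated libraries, nearly all from KRT18. The part of these markers in the V-ATPase values was not tested.

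The mean pattern of the 9 genes was flat within groups, but averaging hid opposite deviations of single genes. Against the other treated libraries, treated replicate 2 stood from −0.42 (ATP6V1B2) to 0.50 (ATP6V1C1) in log2 CPM. Averaged over the genes, log2 CPM centred on each gene's own mean was −0.54, −0.57 and −0.52 in the DMSO libraries and 0.51, 0.58 and 0.53 in the treated libraries. Single genes stood at a root mean square distance of 0.107 (ATP6V1F) to 0.648 (ATP6V0A1) log2 units from it over the 6 libraries. Among 14985 named models with a count in each library and no V-ATPase subunit symbol, the nearest to this pattern were IDH1.S (0.00967 log2 units), TRMT1L (0.0315), IDH1 (0.0336), MFSD13A (0.0404) and RAP1GDS1 (0.0405). All of these lay nearer to the mean pattern than any of the 9 genes did. Such nearness reflects a similar step between groups with little spread, and shared regulation was not tested. IDH1.S, a model of the cytosolic isocitrate dehydrogenase gene, averaged 68.1 ± 0.971 CPM in DMSO and 144 ± 4.44 CPM in treated libraries, and reads of that gene could be split between its 2 models.

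The values of the 9 genes were recomputed under 15 alternative settings, shown in the plot of fold changes by setting. Of 135 such values 133 kept their direction and their side of the threshold, 0 changed sign, and the other two were those of ATP6V1A and ATP6V0A1 with library size only. That scaling moved the median log2 fold change of all models by −0.37, to −0.40, and the median of the 9 genes to 0.85. Relative to the median of all models, the 9 genes stood at 1.23 with TMM and 1.24 with library size only. A change of scaling shifts all models by nearly the same amount, so this difference could hardly move and does not test the scaling.

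**Figure D5:**
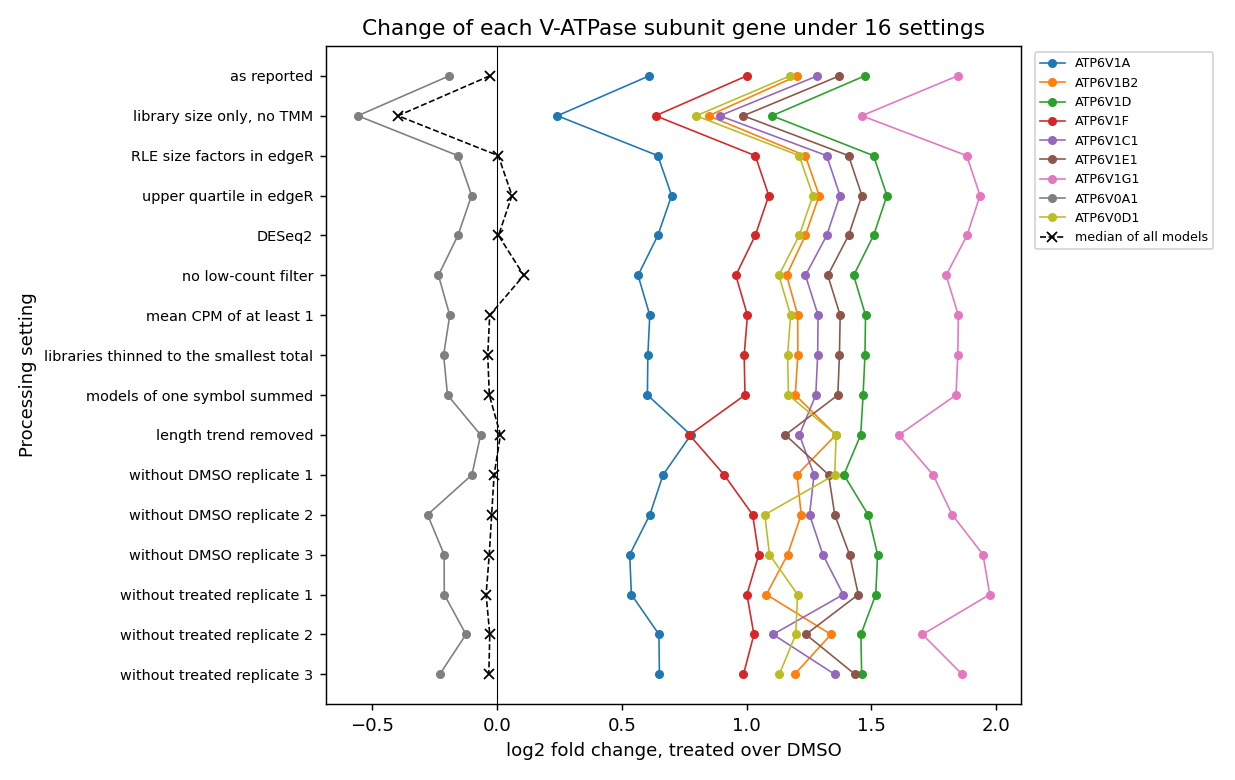
Each line joins the log2 fold changes of 1 subunit gene, treated over DMSO, as reported and under 15 alternative settings on the vertical axis, and the dashed black line is the median of all models tested. ATP6V0A1 stays below 0 and the other 8 genes above 0 under every setting plotted, and with library size only all lines shift to lower values together.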

How the data were processed

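For 3 DMSO and 3 treated libraries the authors deposited raw counts, whole numbers of reads on each gene model. The submitters' processing notes name bcl2fastq 2.20.0, STAR 2.7.7a and featureCounts 2.0.1 without roles, and the assembly is AmexG_v6_DD per the table's name. No source used here gives the settings for strand or for reads with several matches. Exon lengths in bases are from the deposited length column, per the file headers.

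Count columns were matched to samples by their description labels. The 92 spike-in rows held 0 counts and were left out. Counts were tested with edgeR 4.0.16 in R 4.3.3 (filterByExpr, TMM, robust quasi-likelihood F-test, two-sided), with Benjamini-Hochberg adjustment over 17424 models. The script was tested on simulated data in which 200 models changed, far fewer than were called here, so that test does not cover the scaling. SE came from the F statistic. CPM were TMM-scaled, and CPM per kb were divided by exon length. DESeq2 1.42.0 and other scalings, filters, thinning and leave-one-out fits were alternatives. Pairs of replicates differed beyond sampling noise (chi-square per degree of freedom 6.01 to 78.9). The floors cover counting error only, and the reads carry no molecular identifiers. The SE and SD values also include variation between libraries.

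The subunit genes and lists were chosen with earlier results of these data known. Named were all listed V-ATPase and assembly genes tested and, of other lists, up to 2 called genes with the largest changes each way. Outside that rule, LAMTOR2, LAMTOR3, RRAGC, MTOR, the MiT/TFE genes, ATP5F1B, CTSK, COL1A1, VIM and markers at or near 0 counts were named after their values were seen. Of 159 listed symbols 117 had a row. No sequences were used. A marker gene and the summed level of its list are not reported here.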

Additional observations from a re-analysis of the deposited data

How the results depend on the processing

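The number of listed subunit genes called higher was 8 under 14 of 15 alternatives and 7 with library size as the only scaling. Under that scaling 1 was lower (ATP6V0A1), and 13.3% of all models were higher, against 25.5% with TMM. When single libraries were left out, 8 were higher and 0 lower in every case. Of the other V-ATPase genes, 6 were higher when any one library was left out, against 7 with all libraries, and 4 with library size only. The number of these that were lower, 1 with all libraries (ATP6V0A2), ran from 0 to 1 when a library was left out and was 0 with the length trend removed; removing that trend was an alternative chosen after seeing the data. Among the genes called higher, the call lost when any one library was left out was that of ATP6V0C (edgeR adjusted p 0.0520 to 0.157). ATP6V0A2 lost its call without DMSO replicate 1 or 2 and with the length trend removed. Why these calls were lost was not tested. No paired analysis was possible because the labels give no replicate numbers that link libraries across groups. The values of ATP6V0C and ATP6V0D2 rest on at most 82 and 38 counts in a library.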
